A study of Mus musculus with 6 samples.

Results

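Mcam, Robo3, Zfp365, Ak1, Timp3, Tg and Dapl1 are 7 genes, of the 47729 listed for each library, whose RNA stood higher in activated mouse CD8+ T cells given blebbistatin than in those given vehicle. They were picked by name because of that rise, from the same 6 libraries, so their rise is described here and not tested, and they stand outside the gene groups most often followed in such cells. The cells came from spleen, with the agents vehicle (3 libraries) or blebbistatin at 2 µM (3 libraries), each for 24 h. Blebbistatin is an inhibitor of myosin II, which pulls on actin filaments, and the series asked what a chemical modulator of the cytoskeleton does to these cells. The labels do not state strain, sex, age, genotype, the vehicle's composition or how the cells were activated; the names of the vehicle tables contain pbs, which the labels do not explain. Nothing in the labels says that libraries of a group came from separate animals or cultures, so the spread between them may be technical.

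The 7 genes have different known roles. Mcam (CD146) and Robo3 are cell surface proteins of the immunoglobulin superfamily, the first an adhesion molecule of vessel walls and of some T cells, the second a receptor that guides axons across the midline of the nervous system. Timp3 and Tg act outside the cell: Timp3 is a matrix-bound inhibitor of metalloproteinases, including the sheddases that release cytokines and receptors from T cells, and Tg, thyroglobulin, is the precursor of thyroid hormone. Ak1, Zfp365 and Dapl1 act inside the cell. Ak1 is the cytosolic adenylate kinase that balances ATP, ADP and AMP, Zfp365 is a zinc finger protein that protects telomeres and fragile sites, and Dapl1 is a small relative of the death-associated protein Dap whose RNA is known from naive CD8+ T cells. Ak1 and Zfp365 have been described elsewhere as targets of the tumour suppressor p53, so the name of outsiders does not hold strictly for them.

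Levels are TPM, read abundance corrected for transcript length and scaled to the same total in each library, as the authors deposited them. Of the 13372 genes that averaged 1 TPM or more, 187 passed in the higher direction (limma, Benjamini-Hochberg adjusted p under 0.05), which is 1.40% of those tested, and all 7 genes were among them, as their choice requires. All 7 also passed without blebbistatin 2, but 0 of them without blebbistatin 3; without vehicle 1, 2 and 3 the numbers were 2, 3 and 1, and without blebbistatin 1 it was 5. In the lower direction 0.426% passed, and 1.82% in either. Every blebbistatin library lay above every vehicle library in 18.0% of tested genes and, likewise by choice, in all 7. It lay below in 13.0%, so that the groups did not overlap in 31.0%. The libraries held an implied 18500000 to 19900000 fragments, with overlapping depths in the groups. Blebbistatin 2 stood nearest to the vehicle libraries and blebbistatin 1 farthest from them. Blebbistatin 2's log2(TPM + 1) values correlated with theirs at Pearson r of 0.988, 0.988 and 0.988, against 0.985, 0.986 and 0.984 for blebbistatin 3 and 0.978, 0.979 and 0.978 for blebbistatin 1, over genes that are not independent. The fold changes of the 7 genes are therefore also given without blebbistatin 2. The T cell markers Cd3d, Cd3e, Cd3g, Cd8a, Cd8b1, Trac, Lck, Cd2, Cd5 and Thy1 summed to 5305 to 5363 TPM with vehicle and 5091 to 5297 TPM with blebbistatin, and of these 10 genes 1 fell, Thy1, and 0 rose. In such bulk RNA, more cells that hold a transcript and more transcript in each cell cannot be told apart.

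Mcam (ENSMUSG00000032135, protein-coding, plus strand, GRCm38 chromosome 9, 44134469 to 44142727) stood at 2.27, 2.53 and 2.90 TPM in vehicle 1, 2 and 3 and at 9.06, 10.1 and 8.37 TPM in blebbistatin 1, 2 and 3. The lowest blebbistatin library was 2.88 times the highest vehicle library. The group means were 2.57 ± 0.318 and 9.17 ± 0.858 TPM (SD, n = 3 per group throughout), a ratio of 3.57, and the log2 fold change on the log2(TPM + 1) scale was 1.51 (SE 0.12). Mcam thereby ranked 1 among the 187 genes that passed in the higher direction. The vehicle values rested on 57.9 to 74.4 fragments and the blebbistatin values on 212 to 269. Without blebbistatin 2 the log2 fold change was 1.45. The predicted antisense gene Gm10687 shares 0.507% of the exon bases of Mcam and was listed at no more than 0.128 TPM. The RefSeq promoter window of Mcam, 250 bases before to 50 after the start (chr9:44134408-44134707, GRCm38.p6, plus strand), is shown because Mcam moved most; its 29 CpG dinucleotides, in capitals, compare with a median of 7.0 over 32851 such windows.
Mcam: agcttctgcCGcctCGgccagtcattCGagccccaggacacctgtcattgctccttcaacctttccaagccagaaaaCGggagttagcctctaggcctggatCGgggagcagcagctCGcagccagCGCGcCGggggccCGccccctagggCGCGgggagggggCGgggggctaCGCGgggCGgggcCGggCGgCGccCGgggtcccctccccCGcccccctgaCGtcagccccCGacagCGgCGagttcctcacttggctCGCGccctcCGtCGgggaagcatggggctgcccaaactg

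Of 18 adhesion molecules and ligands listed as relatives and partners of Mcam 12 were tested, 0 rose and 1 fell, where 1.40% and 0.426% of all tested genes did, with a median log2 fold change of -0.03 beside 0.03 for all tested genes. The one that fell was Lgals3, galectin-3, a sugar-binding protein reported to bind Mcam, with means of 118 ± 9.35 and 70.3 ± 7.56 TPM (log2 fold change -0.75, SE 0.09, limma with Benjamini-Hochberg adjusted p = 0.022), or -0.83 without blebbistatin 2. Bcam, a laminin receptor of the same family, was at 6.37, 5.08 and 5.53 TPM with vehicle and 6.97, 8.34 and 9.35 TPM with blebbistatin, groups that did not overlap, but did not pass (limma, Benjamini-Hochberg adjusted p = 0.12). Alcam, another relative, had vehicle and blebbistatin means of 12.2 ± 0.335 and 12.01 ± 0.837 TPM. Lama4, the laminin chain that Mcam binds, was listed at 0 in each vehicle library and at no more than 0.033 TPM with blebbistatin. As to endothelium, Pecam1, which T cells also carry, made up most of the summed 18.4 to 21.98 TPM of 10 endothelial and pericyte markers with vehicle and 21.8 to 28.4 TPM with blebbistatin. Emcn and Cspg4 were at 0 in all 6 libraries, Cdh5 was at 0 with vehicle and at 0.036 TPM on average with blebbistatin. Kdr, a receptor for vascular endothelial growth factor, was at 0.0858 to 0.161 TPM with vehicle and 0.249 to 0.503 TPM with blebbistatin, without overlap, and Tek, the angiopoietin receptor, averaged 0.0444 and 0.146 TPM. Both lay under the minimum level for testing, their part in the level of Mcam was not tested, and the 1 tested gene of the list, Pecam1, did not pass. The sums of the groups, mostly Pecam1, overlapped.

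Robo3 (ENSMUSG00000032128, protein-coding, minus strand, chromosome 9, 37415669 to 37433163) was at 1.72, 2.29 and 2.74 TPM with vehicle and at 7.69, 6.36 and 7.37 TPM with blebbistatin. All blebbistatin libraries lay above all vehicle libraries, the lowest at 2.33 times the highest vehicle value. Means were 2.25 ± 0.511 and 7.14 ± 0.691 TPM, a ratio of 3.18, with a log2 fold change of 1.33 (SE 0.15), or 1.40 without blebbistatin 2. Robo3 rested on few reads, 26.5 to 42.1 fragments with vehicle and 100 to 109 with blebbistatin, so its ratio carries a large counting error. It was the only Robo receptor that reached the minimum level for testing. Robo2 was at 0 in all 6 libraries, Robo1 at 0 with vehicle and at no more than 0.058 TPM with blebbistatin, and Robo4 at 0.009 and 0.015 TPM on average. Nell2, the ligand that binds Robo3 in mammals, Slit3 and the partner receptor Dcc were at 0 throughout. Slit1 averaged 0.0978 TPM with vehicle and 0.252 TPM with blebbistatin, without overlap. Slit2 was at 0 with vehicle and at 0.0183 TPM on average with blebbistatin. Both lay under the minimum level for testing. Of the 9 other tested genes of that list 0 passed in either direction (median log2 fold change 0.16), among them Cdc42, a GTPase downstream of Robo receptors, at 614 ± 4.44 and 660 ± 66.4 TPM, and Ablim1, an actin-binding protein, at 169 ± 7.50 and 199 ± 17.4 TPM. Rac1, another such GTPase, differed most (log2 fold change 0.95, SE 0.27) but did not pass (limma, Benjamini-Hochberg adjusted p = 0.12). The 7 neuronal markers summed to 1.78 to 2.81 TPM with vehicle and 1.44 to 3.62 TPM with blebbistatin, with overlapping groups, and Snap25 and Stmn2 were at 0 in each library.

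**Figure D1:**
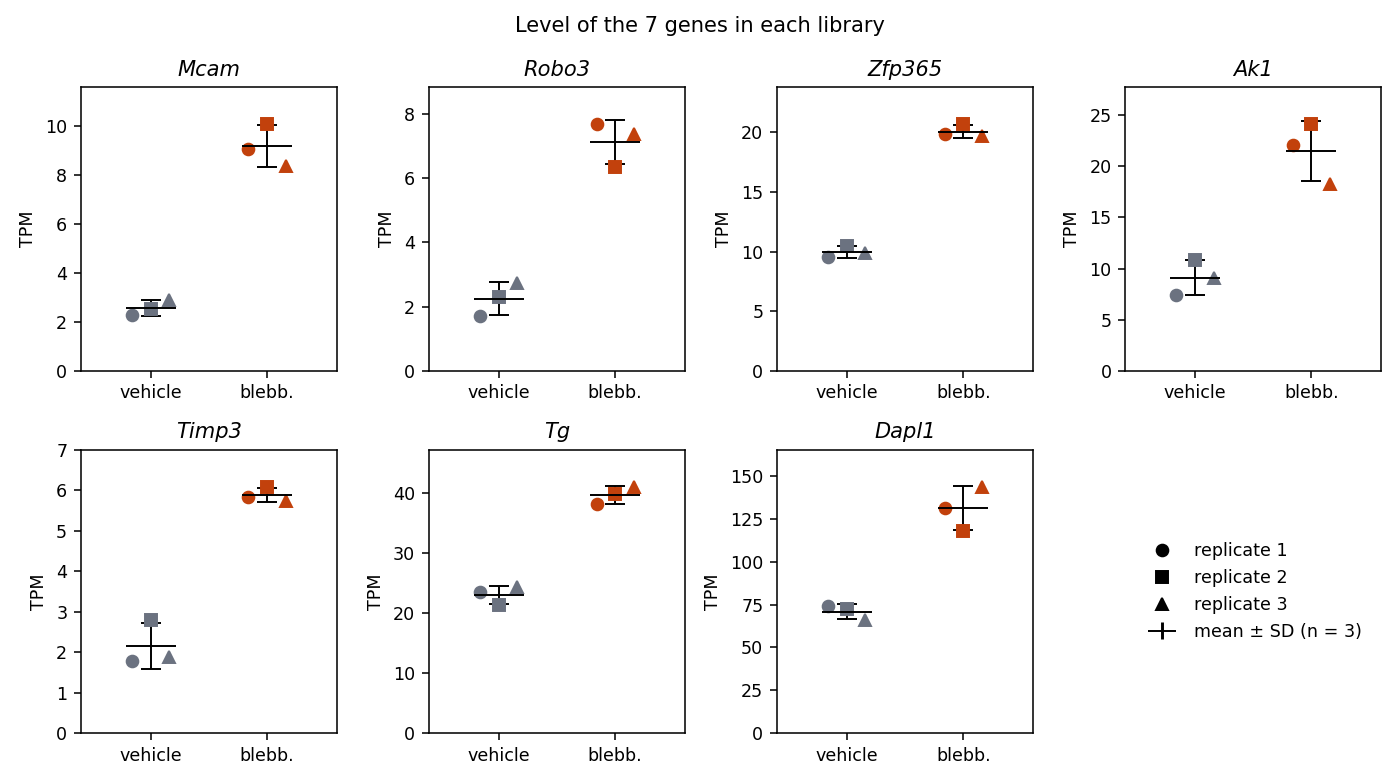
TPM (linear axes from 0) of each of the 7 genes in the 3 vehicle (grey) and 3 blebbistatin (orange) libraries, marker shape giving the replicate number, bar and whiskers the mean ± SD (n = 3). The groups do not overlap in any panel, and blebbistatin 2 (square) is the highest library for Mcam, Zfp365, Ak1 and Timp3.

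Timp3 (ENSMUSG00000020044, protein-coding, plus strand, chromosome 10, 86300372 to 86349506) was the gene of lowest level, at 1.78, 2.81 and 1.89 TPM with vehicle and 5.85, 6.09 and 5.73 TPM with blebbistatin. Its blebbistatin values lay close together, 5.89 ± 0.181 TPM, while vehicle 2 stood above the other vehicle libraries (mean 2.16 ± 0.563 TPM). The ratio of means was 2.72 and the log2 fold change 1.14 (SE 0.15), or 1.12 without blebbistatin 2 and 1.28 without vehicle 2. Timp3 rested on 25.99 to 45.8 fragments with vehicle and 88.1 to 90.2 with blebbistatin. It lies inside the span of Syn3, a synapsin gene on the opposite strand, and 21.3% of its exon bases are also Syn3 exon. The library kit does not mark strand, so reads there cannot be assigned to 1 of the pair; Syn3 was listed at 0.030 to 0.090 TPM with vehicle and 0.172 to 0.206 TPM with blebbistatin.

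Among the other inhibitors Timp2 averaged 1.12 ± 0.191 and 1.56 ± 0.250 TPM, short of the threshold (limma, Benjamini-Hochberg adjusted p = 0.32), Timp1 averaged 0.410 and 0.232 TPM, and Timp4 was at 0 in all libraries. Of the 9 tested relatives and proteases other than Timp3, 1 rose and 0 fell, where 1.40% and 0.426% of all tested genes did, with a median log2 fold change of 0.07. That gene was Adam8, a protease of activated leukocytes, with means of 30.1 ± 1.77 and 41.1 ± 1.49 TPM (log2 fold change 0.44, SE 0.07, limma with Benjamini-Hochberg adjusted p = 0.035), or 0.45 without blebbistatin 2. Adam17, the tumour necrosis factor sheddase that Timp3 inhibits, was at 41.7 ± 6.90 and 44.9 ± 3.89 TPM, and Adam10 at 74.5 ± 4.61 and 79.6 ± 8.89 TPM. Mmp15, a metalloproteinase, was at 0.147 to 0.181 TPM with vehicle and 0.529 to 1.03 TPM with blebbistatin. Mmp2 was at 0 with vehicle and at 0.070 to 0.179 TPM with blebbistatin. Mmp15 and Mmp2 lay under the minimum level for testing. Fibroblast and stromal markers, the usual company of Timp3, stayed under 1 TPM in sum. Of the 8 in that list 7 were found, at 0.101 to 0.293 TPM with vehicle and 0.509 to 0.755 TPM with blebbistatin in sum, with Col3a1, Dcn and Pdgfra at 0 in each library. The sums of the groups did not overlap, and their part in the level of Timp3 was not tested.

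Tg (ENSMUSG00000053469, protein-coding, plus strand, chromosome 15, 66670753 to 66850721) was listed at 23.5, 21.4 and 24.3 TPM with vehicle and at 38.2, 39.8 and 41.0 TPM with blebbistatin. The groups were well separated, 23.1 ± 1.49 against 39.7 ± 1.44 TPM, with a ratio of 1.72 and a log2 fold change of 0.76 (SE 0.07), or 0.76 without blebbistatin 2. These values do not stand for a full thyroglobulin transcript. Only 51.7 to 61.1 fragments with vehicle and 94.4 to 101 with blebbistatin lay on the 8883 exon bases of Tg. The deposited coverage, averaged over all exons, was 3.02% of what the deposited FPKM, another length-corrected abundance, would give in a gene with 1 transcript. Among 10540 tested genes with several annotated transcripts 0.674% had a lower value, and the median was 59.9%. Put as a length, this ratio implied 266 to 271 bases in the 6 libraries, against 8454 bases for the longest annotated transcript and 460 for the shortest. That is under the shortest annotated transcript and under the 300 bases taken as 1 fragment, so it cannot be taken as the length of a real transcript. Spread over all exons of the gene, the Tg means would be 0.694 ± 0.0438 TPM in vehicle and 1.20 ± 0.0370 TPM in blebbistatin libraries, still with no overlap of the groups.

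The other genes of thyroid hormone production were at 0 or under the minimum level. Of the 14 genes in that list Tg alone reached the minimum level for testing. Nkx2-1, Slc26a4, Duoxa2, Iyd and Dio1 were at 0 in all libraries, and the 6 markers of thyroid follicle cells summed to 0.109 to 0.338 TPM with vehicle and 0.161 to 0.233 TPM with blebbistatin. Sla, an adaptor that restrains T cell receptor signalling, lies wholly inside the Tg span on the opposite strand (66780819 to 66831829) without sharing an exon base. Sla was at 63.8, 58.6 and 59.99 TPM with vehicle and 79.8, 62.4 and 67.3 TPM with blebbistatin. Its groups overlapped and it did not pass (log2 fold change 0.19, SE 0.09, limma with Benjamini-Hochberg adjusted p = 0.27). The predicted gene Gm17140 shares 1.26% of the exon bases of Tg and was at 0 in all libraries but blebbistatin 3, at 0.107 TPM.

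Ak1 (ENSMUSG00000026817, protein-coding, plus strand, chromosome 2, 32621758 to 32635058) was at 7.39, 10.9 and 9.10 TPM with vehicle and 22.1, 24.1 and 18.3 TPM with blebbistatin. It had the widest spread of the 7 for its level. Its SD within groups, 0.22 on the log2 scale, exceeded that of 79.2% of the 500 genes nearest to it in vehicle level. The means were 9.12 ± 1.74 and 21.5 ± 2.98 TPM, a ratio of 2.36, with a log2 fold change of 1.16 (SE 0.15), or 1.07 without blebbistatin 2 and 1.28 without vehicle 2. Fragments numbered 58.0 to 70.3 with vehicle and 134 to 173 with blebbistatin. Here too coverage was low for the FPKM, with an implied mean length of 718 to 885 bases against 2085 for the longest annotated form. Among the other adenylate kinases, Ak3 (49.2 ± 0.574 and 55.4 ± 4.01 TPM) and Ak6 (210 ± 5.76 and 217 ± 11.2 TPM) did not pass. Ak4 averaged 5.96 ± 0.408 TPM with vehicle and 11.2 ± 6.10 TPM with blebbistatin, a spread too wide to pass (limma, Benjamini-Hochberg adjusted p = 0.25). Of the 12 tested nucleotide and creatine kinases other than Ak1, 1 rose and 0 fell, where 1.40% and 0.426% of all tested genes did, with a median log2 fold change of -0.09. It was Ckmt1, the mitochondrial creatine kinase that, like Ak1, passes on high-energy phosphate, with means of 6.35 ± 1.06 and 13.9 ± 1.75 TPM (log2 fold change 1.02, SE 0.14, limma with Benjamini-Hochberg adjusted p = 0.026), or 1.08 without blebbistatin 2.

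Zfp365 (ENSMUSG00000037855, protein-coding, minus strand, chromosome 10, 67886103 to 67912662) showed the tightest replicates. It was at 9.56, 10.5 and 9.85 TPM with vehicle and at 19.8, 20.7 and 19.7 TPM with blebbistatin. Both groups spanned about 1 TPM and lay about 10 TPM apart, at 9.97 ± 0.480 and 20.1 ± 0.547 TPM. The ratio was 2.01 and the log2 fold change 0.94 (SE 0.07), or 0.92 without blebbistatin 2. Only 4.4% of the 500 genes nearest in vehicle level had a smaller SD within groups. With 352 to 389 fragments with vehicle and 745 to 799 with blebbistatin, Zfp365 was read about as deeply as Dapl1 and more deeply than the other 5. Its implied mean length of 4079 to 4209 bases lay near its longest annotated transcript of 4259. The promoter window (chr10:67912613-67912912, GRCm38.p6, minus strand) is shown because it alone among the 9 windows of these genes holds the E-box CACGTG, in capitals, 41 bases before the start, which 7.15% of all windows hold.
Zfp365: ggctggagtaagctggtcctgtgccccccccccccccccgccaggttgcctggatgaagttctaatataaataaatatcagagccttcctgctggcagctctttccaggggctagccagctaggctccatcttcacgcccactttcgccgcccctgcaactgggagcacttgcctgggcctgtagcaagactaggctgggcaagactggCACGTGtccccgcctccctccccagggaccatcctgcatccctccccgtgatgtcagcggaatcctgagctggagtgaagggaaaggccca

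Because Zfp365 and Ak1 have been called p53 targets, the values of 32 other p53 target genes are set beside them. In that list, chosen with results of these samples known and so no independent evidence, 15 rose and 0 fell, where 1.40% and 0.426% of all tested genes did. The median log2 fold change was 0.47, beside 0.03 for all tested genes. The strongest were Plk2, a polo-like kinase (1.20), Trp53inp1, which promotes p53-dependent death (1.13), Ercc5, a repair nuclease (0.87), Fas, a death receptor (0.86), and Perp, a membrane effector of apoptosis (0.74), with limma adjusted p from 0.0079 to 0.016. The genes of the list that did not pass ran from -0.21 for Ddb2 to 0.66 for Eda2r. Among them were Cdkn1a (0.29), Bbc3 (0.20) and Bax (-0.0036). Zfp365, at 0.94, lay between Trp53inp1 and Ercc5, and Ak1, at 1.16, between Plk2 and Trp53inp1. None of the 9 promoter windows held an exact p53 half-site on either strand, which 8.36% of all windows hold. Whether p53 has a part in the rise of Zfp365 or Ak1 was not tested.

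Dapl1 (ENSMUSG00000026989, protein-coding, plus strand, chromosome 2, 59484653 to 59505020) had the highest level, at 73.9, 72.7 and 65.9 TPM with vehicle and 132, 118 and 144 TPM with blebbistatin. The groups lay apart, 70.8 ± 4.29 against 131 ± 12.8 TPM, with a ratio of 1.85 and a log2 fold change of 0.88 (SE 0.08), or 0.95 without blebbistatin 2. Its transcript is short, 573 or 663 bases, and 356 to 376 fragments with vehicle and 639 to 759 with blebbistatin lay on it. In absolute terms Dapl1 gained most, 60.2 TPM, against 3.73 TPM for Timp3. Its promoter window (chr2:59484403-59484702, GRCm38.p6, plus strand) is shown for the TATAAA in capitals, 29 bases before the start; 13.6% of all windows hold TATAAA somewhere.
Dapl1: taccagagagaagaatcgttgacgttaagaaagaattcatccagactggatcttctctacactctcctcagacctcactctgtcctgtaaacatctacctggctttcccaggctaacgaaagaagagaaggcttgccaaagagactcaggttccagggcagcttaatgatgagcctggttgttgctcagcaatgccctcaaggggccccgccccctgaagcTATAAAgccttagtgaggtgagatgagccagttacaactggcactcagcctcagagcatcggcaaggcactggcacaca

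Of 22 other naive and memory T cell genes, 3 rose and 0 fell, where 1.40% and 0.426% of all tested genes did, with a median log2 fold change of 0.12. Among those that rose, Tcf7, the transcription factor TCF-1, rose by 0.51 and Il7r, the interleukin 7 receptor, by 0.51 on the log2 scale, with adjusted p of 0.016 to 0.032 by limma with Benjamini-Hochberg. Other genes of the list had lower means with blebbistatin without passing. Klf2, a factor of T cell quiescence, stood at 24.1, 20.9 and 21.5 TPM with vehicle and 9.01, 16.6 and 11.8 TPM with blebbistatin, without overlap (log2 fold change -0.82, SE 0.19, limma with Benjamini-Hochberg adjusted p = 0.086). Igfbp4 (-0.51), Id3 (-0.34) and Eomes (-0.33) also had negative log2 fold changes. Still others had higher means, among them Nsg2 (0.46), Bach2 (0.42) and Satb1 (0.25), whose groups did not overlap. Nsg2, Bach2 and Satb1 did not pass either, with adjusted p of 0.058 to 0.067 by limma with Benjamini-Hochberg. Lef1, the partner of TCF-1, was at 71.8 ± 4.12 and 82.9 ± 4.22 TPM, and Ccr7, a lymph node homing receptor, at 205 ± 8.34 and 218 ± 12.6 TPM, and neither passed. Over all family and marker lists 35 genes passed, 5 of them among the 7 described. That count fell to 5, 5 and 4 without vehicle 1, 2 and 3 and to 0 without blebbistatin 3, and was 26 and 43 without blebbistatin 1 and 2.

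**Figure D2:**
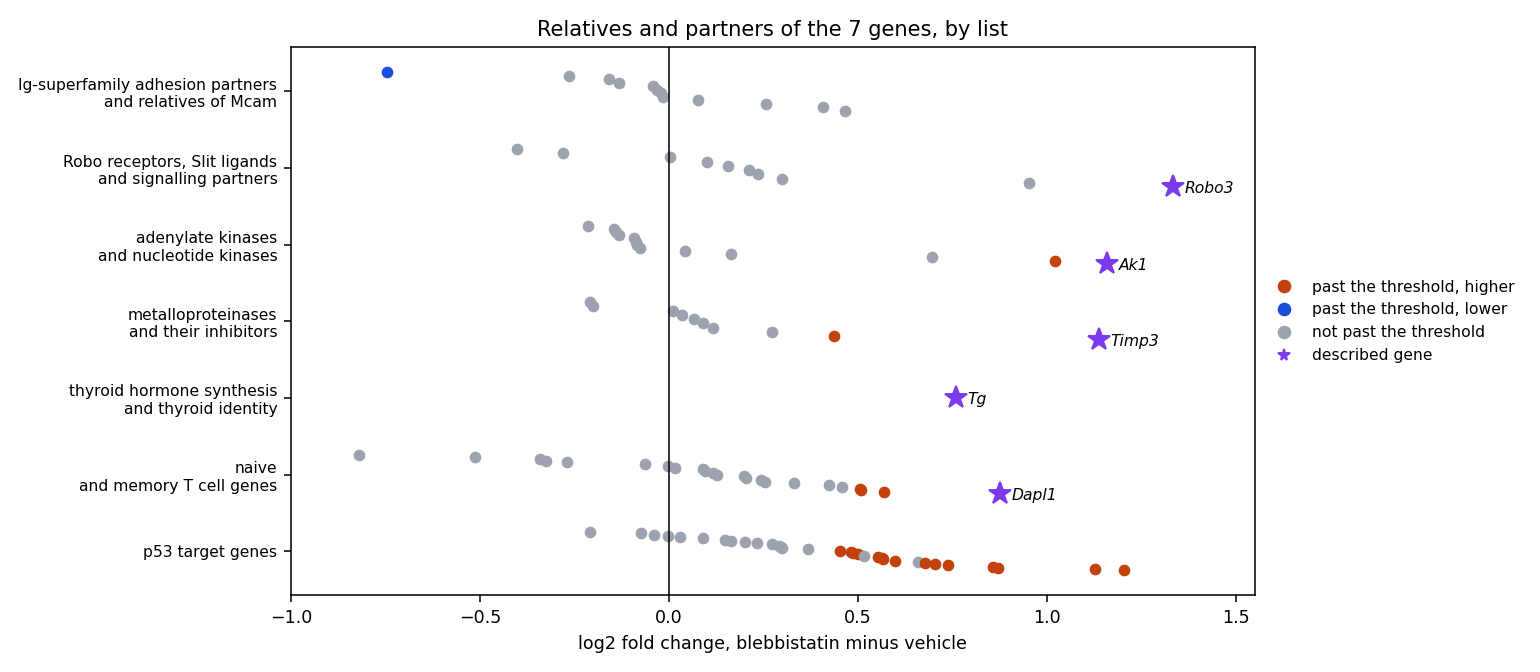
Log2 fold change, blebbistatin minus vehicle, on the log2(TPM + 1) scale, of the tested genes of the 7 family lists. Robo3, Ak1, Timp3, Tg and Dapl1 are stars and other genes circles (orange or blue where they passed higher or lower, grey where they did not). Mcam and Zfp365 are in none of these lists and are not drawn. Robo3, Ak1, Timp3 and Dapl1 lie to the right of their tested relatives, and Tg stands without any tested relative.

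The order of levels depended on how length was counted. By deposited TPM with vehicle Dapl1 was followed by Tg, then by Zfp365 and Ak1, whose libraries overlapped, then by Mcam, Robo3 and Timp3, which overlapped as well. With blebbistatin Ak1 and Zfp365 still overlapped, whereas Mcam, Robo3 and Timp3 no longer did. When each level was spread over all annotated exons of the gene, Dapl1 (59.8 ± 3.63 TPM) and Zfp365 (7.88 ± 0.365 TPM) led with vehicle, followed by Ak1 (2.72 ± 0.255 TPM) and Mcam (2.18 ± 0.209 TPM), which did not overlap. Tg, at 0.694 TPM, then overlapped Robo3 (0.565 ± 0.123 TPM), and Robo3 overlapped Timp3 (0.456 ± 0.149 TPM). Robo3 and Timp3 also had implied mean lengths, 1432 to 2037 and 1457 to 1851 bases, well under their longest annotated forms of 5000 and 4722 bases. On fragments scaled to library size, which use no transcript length, the ratios of group means were 3.55 for Mcam, 2.87 for Robo3, 2.58 for Timp3, 2.36 for Ak1, 2.01 for Zfp365, 1.86 for Dapl1 and 1.72 for Tg.

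**Figure D3:**
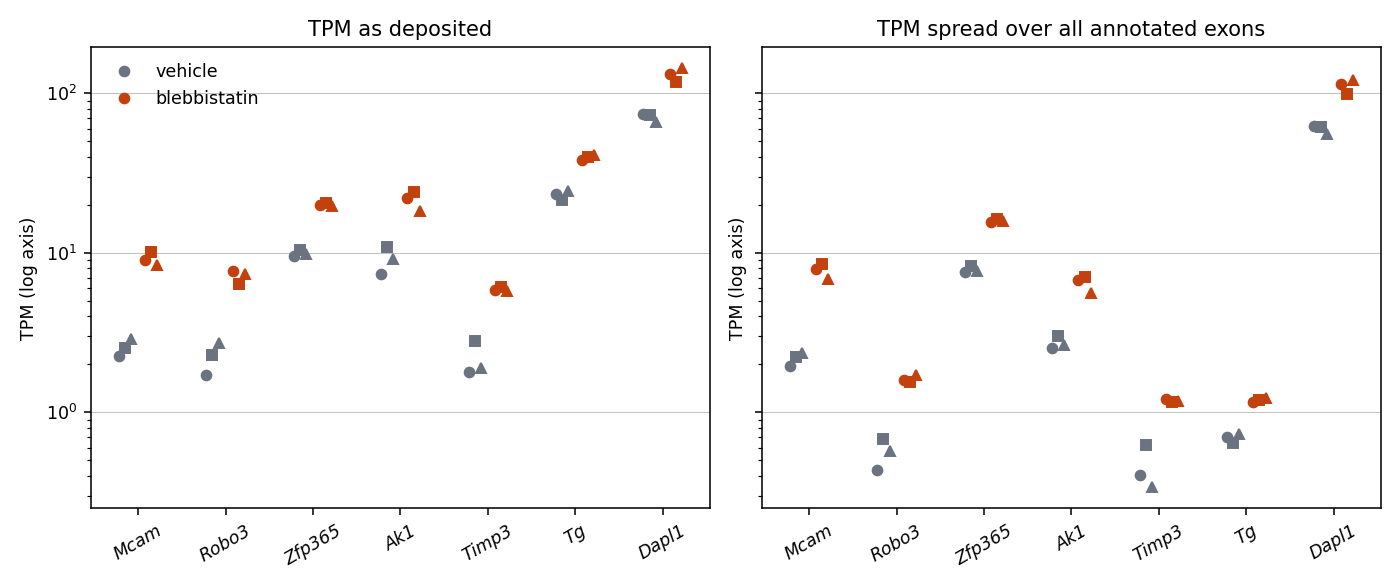
TPM of the 7 genes in each library (log axes; grey vehicle, orange blebbistatin; marker shape the replicate number), as deposited (left) and spread over all annotated exons (right). Tg moves from second place at 21.4 TPM or more to under 1 TPM with vehicle, while Dapl1, Zfp365 and Mcam keep nearly the same level in both panels.

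The blebbistatin library nearest to vehicle over all genes was not the weakest for these 7. Blebbistatin 2 held the highest value for 4 of them, blebbistatin 3 for 2 and blebbistatin 1 for 1. Relative to the vehicle mean, the median of the 7 was 2.42, 2.65 and 2.03 in blebbistatin 1, 2 and 3. Robo3 and Dapl1 were lowest in blebbistatin 2, and Mcam, Zfp365, Ak1 and Timp3 were lowest in blebbistatin 3. Among vehicle libraries vehicle 1 was the lowest for 5 of the 7.

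Within 200 kb of the 7 genes 43 other genes were tested, none of them near Timp3. Of these 0 rose and 1 fell, against 1.40% and 0.426% of all tested genes, with a median log2 fold change of 0.02. The one that fell was Thy1, a surface glycoprotein of T cells near Mcam (-0.28, SE 0.04, limma with Benjamini-Hochberg adjusted p = 0.038). The 14 nearest tested genes, 1 on each side of each gene, ran from -0.37 for Ndrg1 beside Tg to 0.46 for Eng beside Ak1. Eng, endoglin, a co-receptor for transforming growth factor beta that starts 24.8 kb from the start of Ak1, was at 17.1 ± 0.425 and 23.9 ± 2.42 TPM and missed the threshold (adjusted p = 0.056 by limma with Benjamini-Hochberg). Cbl, a ubiquitin ligase of T cell signalling that ends 0.249 kb from Mcam, was at 56.7 ± 4.26 and 62.6 ± 2.25 TPM. The other nearest neighbours were Rnf26 beside Mcam, Ccdc15 and Msantd2 beside Robo3, Ado and Rtkn2 beside Zfp365, St6galnac6 beside Ak1, Fbxo7 and 1810014B01Rik beside Timp3, Phf20l1 beside Tg, and Pkp4 and Gm13552 beside Dapl1.

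**Figure D4:**
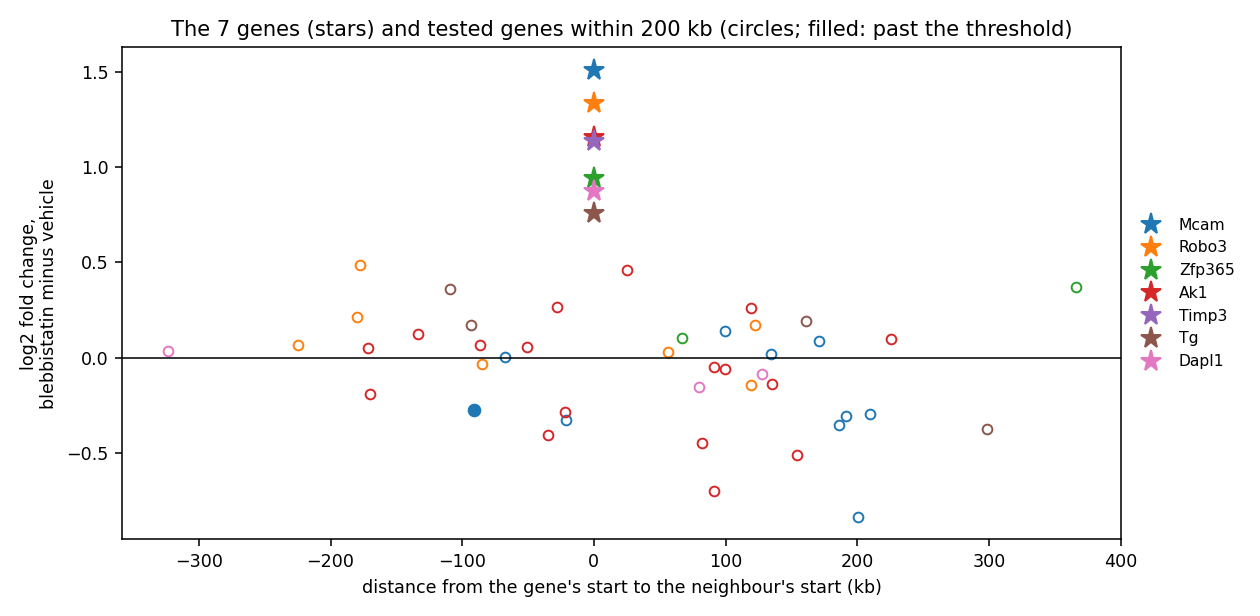
Log2 fold change, blebbistatin minus vehicle, of the 7 genes (stars at distance 0) and of tested genes within 200 kb (circles in the colour of the gene they neighbour, filled where they passed), against the distance in kb between start sites. The neighbours scatter around 0, and the 1 filled circle is Thy1, below 0.

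The genes most like each of the 7 over the 6 libraries were taken by Pearson r of log2(TPM + 1) among 9371 named genes averaging 5 TPM or more. With 2 groups set apart, a high r is reached by many genes, between 98 (for Ak1) and 251 (for Robo3) above 0.95, and r is only a description. The leaders were Asap1, Lpin1 and Itm2a for Mcam (r 0.997, 0.996 and 0.994) and Dynlt3, Arhgap18 and Axl for Robo3 (0.995, 0.995 and 0.994). Zfp365 was matched best by Atg12, Calcoco1 and Serpine2 (r of 0.9995, 0.997 and 0.997), and Ak1 by Zc3h12d, Abcb1a and Slc25a17 (0.998, 0.997 and 0.996). For Timp3 they were Rbms2, Wdr35 and Ppm1b (0.995, 0.995 and 0.992), for Tg they were Ptpn14, Plk2 and Uba1 (0.995, 0.9945 and 0.9945), and for Dapl1 they were Rpl4, Dctn4 and Cdyl2 (0.997, 0.995 and 0.995). Sizes differed far more than shapes: Atg12, an autophagy protein, went from 24.1 ± 0.186 to 28.9 ± 0.162 TPM, a log2 fold change of 0.25 beside 0.94 for Zfp365.

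Transcripts of other cells moved with the 7 genes. The 13 platelet and megakaryocyte markers summed to 64.2 to 73.2 TPM with vehicle and 145 to 163 TPM with blebbistatin. Of 9 tested, 6 rose, Ppbp, Itgb3, Pf4, Treml1, Vwf and Itga2b, beside 1.40% of all tested genes, and none of the 13 was at 0 in all libraries. Treml1, at 0.975 TPM on average with vehicle, reached the minimum level of 1 TPM only through the blebbistatin libraries. Of 16 or 17 other settings, Ppbp no longer passed in 2, Pf4 in 5, Itgb3 and Treml1 in 7, Vwf in 8 and Itga2b in 10. The 10 B cell and class II markers summed to 602 to 622 TPM with vehicle and 630 to 721 TPM with blebbistatin, most of it Ighm, at 499.96 ± 7.77 and 477 ± 12.6 TPM. The other 9 summed to 108 to 119 TPM with vehicle and 152 to 234 TPM with blebbistatin. H2-Eb1 and Igkc rose among 6 tested, again beside 1.40% of all tested genes, and no longer passed in 6 and 7 of 17 other settings. Of the defining markers, Cd79a was at 0.363 to 0.425 TPM with vehicle and 0.944 to 1.59 TPM with blebbistatin, Cd79b averaged 11.5 ± 2.17 and 14.6 ± 1.78 TPM, and Ms4a1 and Pax5 averaged under 1 TPM in both groups. Of 7 myeloid markers 6 were found, at 92.7 to 93.5 TPM with vehicle and 69.1 to 98.5 TPM with blebbistatin in sum. Most of that sum was Cst3, at means of 83.7 TPM with vehicle and 71.6 TPM with blebbistatin. Lyz2, Csf1r, Adgre1 and Cd14 averaged under 1 TPM in both groups. The 7 erythroid markers summed to 5.66 to 7.23 and 5.66 to 6.62 TPM, and the 5 NK cell markers to 32.3 to 34.0 and 35.2 to 43.8 TPM. The NK cell sum was mostly Klrk1, at means of 31.6 TPM with vehicle and 35.7 TPM with blebbistatin. Ncr1, Klrb1c and Klra8 averaged under 1 TPM in both groups. None of the 3 lists of myeloid, erythroid and NK cell markers had a member past the threshold. What part platelet, B cell or NK cell transcripts have in the rise of Mcam, Timp3 or the other genes was not tested.

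**Figure D5:**
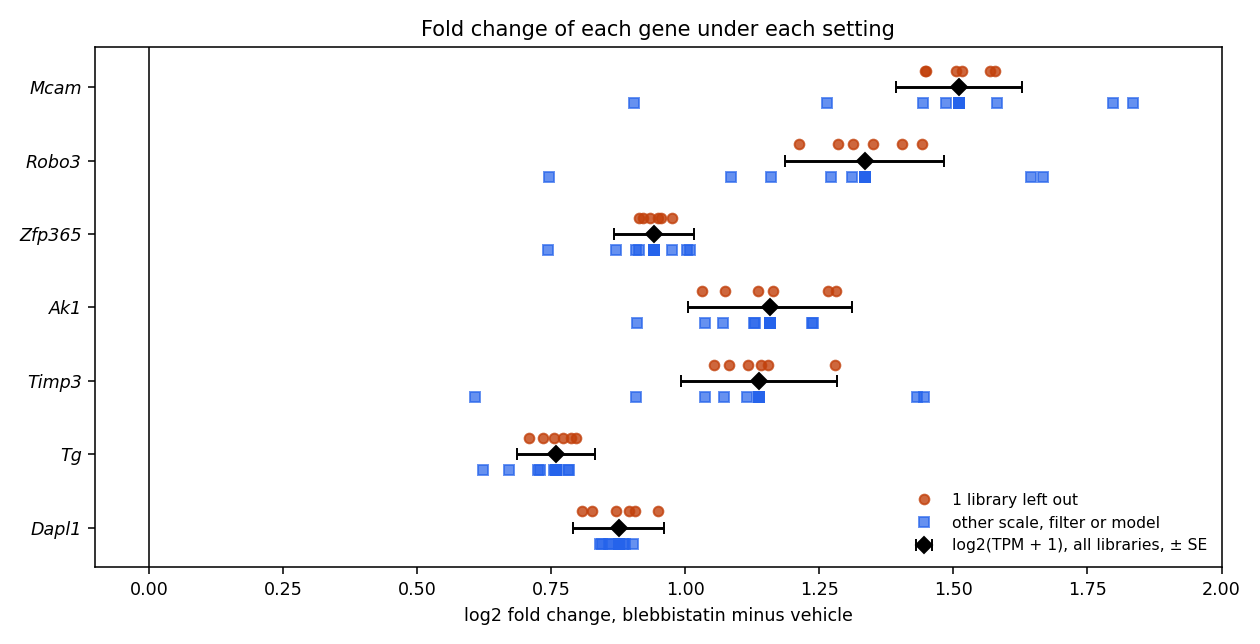
Log2 fold change of each of the 7 genes, blebbistatin minus vehicle: black diamonds on the log2(TPM + 1) scale with all libraries (± SE), orange circles with 1 library left out, blue squares with another scale, filter or model. All points lie right of 0, and those of Mcam, Robo3 and Timp3, the genes of lowest TPM, spread most, from 0.61 for Timp3 with a pseudocount of 5 to 1.84 for Mcam as the ratio of means.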

How the data were processed

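RNA sequencing libraries of 3 vehicle and 3 blebbistatin samples were used, grouped by the labels. The tools named, without roles, are DESeq2 1.22.2, HISAT2 2.1.0 and StringTie 1.3.4, with build mm10, per the submitters' processing notes. The authors deposited 47729 genes per library with TPM, FPKM and coverage (mean read depth over a gene). Libraries were made with a TruSeq v2 kit, per the labels' protocols, which does not mark strand.

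Genes averaging 1 TPM or more were tested on log2(TPM + 1) by limma 3.58.1 (R 4.3.3) with a mean-variance trend, two-sided, with Benjamini-Hochberg adjustment at 0.05, after a check on simulated data. Such fold changes understate those of low genes. Coverage times exon length gave aligned bases, whose commonest step, 300 bases, was taken as 1 fragment. Coverage over FPKM, relative to genes with 1 transcript (5.54 to 5.98), gave implied mean lengths. These assume that the deposited coverage was averaged over the exons of GENCODE M21, which was not checked. Low values are not lengths of real transcripts: the measure gave 80 bases for Mndal and 64 for Gm19705. Exons, overlaps and positions came from GENCODE M21 on GRCm38, which matched 98.9% of gene identifiers, and promoter windows of 300 bases from RefSeq on GRCm38.p6, found for 6 of the 7 genes. Motifs were searched on both strands of the 9 windows of these genes and of all 32851. The p53 half-site was in 0 of the 9 and 8.36% of all. The TEAD motif GGAATG was in 0 and 14.7%. The KLF motif CACCC was in 4 and 57.5%. The motif TATAAA was in 3 and 13.6%. The AP-1 motif TGANTCA was in 1 and 7.81%. The E-box CACGTG was in 1 and 7.15%. The motif CCAAT was in 0 and 37.4%.

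The 7 genes and the lists were chosen with earlier results of these data known. Named besides are list members past the threshold (at most 5 a list, else the 2 of highest level), overlapping and nearest genes, the 3 most alike, and markers. Partners and family members named beyond that rule (such as Bcam, Kdr, Tek, Cd79a, Klf2, Eomes, Robo1, Lama4, Timp1, Adam17, Ak4, Lef1) were chosen after their values were seen. Other pseudocounts, minimum levels, scalings, FPKM, model settings, a replicate block and leaving out each library were tried as alternatives. The B cell marker sum without Ighm was added after the data were seen. Some genes of the lists are counted but not reported by name here. Figures were drawn with matplotlib 3.10.9.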

Additional observations from a re-analysis of the deposited data

How the results depend on the processing

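Of 124 recomputed fold changes of the 7 genes 0 changed sign and 19 moved by more than the SD between replicates, mostly with the pseudocount or FPKM: Mcam ran from 0.90 with a pseudocount of 5 to 1.80 with 0.1, Robo3 from 0.75 to 1.64 and Timp3 from 0.61 to 1.43. Of the 7 genes 0 passed the threshold with the replicate block or without blebbistatin 3, and Robo3, Ak1 and Timp3 did not pass with no minimum level. Robo3 and Timp3 fell under a minimum of 5 TPM and have no value there. The count of genes past the threshold, 244 of 13372 (187 higher, 57 lower), became 49 with no minimum level, 160 without the trend and 445 on fragments scaled to library size, an alternative added after the data were seen. It ran from 3 without blebbistatin 3 to 1090 without blebbistatin 2 (496 higher, 594 lower), with 13, 11, 7 and 120 without vehicle 1, 2 and 3 and blebbistatin 1. Of the 35 list genes 14 passed with no minimum level, and 0 to 43 with 1 library left out. With the replicate block 0 genes passed over all (2628 at an unadjusted p under 0.05 by limma) and 0 in the lists. Same-numbered libraries deviated from their group means with correlations of 0.011, -0.037 and -0.034, and differently numbered ones with -0.03 to 0.059. The numbers thus gave no sign of pairing, but correlations this small cannot exclude a shared culture or animal. The cause of these changes was not tested, except that leaving out a library or adding a block leaves fewer degrees of freedom. At 25.99 to 74.4 fragments with vehicle, depth limits the ratios of Mcam, Robo3, Timp3, Tg and Ak1 most.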

Other observations

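Tg was not the only gene that passed in the higher direction with a coverage low for its FPKM. Of the 187 such genes 15 had a coverage under 10% of what their FPKM would give in a gene with 1 transcript, 8.02%, beside 3.31% of all 13367 tested genes with a value. Chosen after these values were seen, Ntrk3, a neurotrophin receptor, went from 6.12 ± 0.434 to 9.75 ± 0.320 TPM (SD, n = 3 in each group). It rested on a mean of 23.5 and 40.0 fragments, with an implied mean length of 433 bases against 30170 exon bases. Plekha7, a junction protein of epithelia, went from 4.04 ± 0.162 to 6.97 ± 0.817 TPM on 22.2 and 35.1 fragments. Zeb2, a transcription factor of effector T cells, was at 0.647 ± 0.120 and 2.14 ± 0.331 TPM on 12.9 and 23.5 fragments. Its vehicle mean lay under the minimum level of 1 TPM, which it reached only through the blebbistatin libraries, and its TPM rose relatively more than its fragments.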
